A study of Mus musculus with 48 samples.

Results

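The olfactory receptor gene clusters of chromosomes 2 and 7 held 436 of the 187695 loci at which methylated DNA was counted in the mouse amygdala. They were chosen by position alone. A locus was a member when it lay on chromosome 2 between 85100000 and 90000000 (131 loci) or on chromosome 7 between 102400000 and 108800000 (305 loci) of the GRCm38 assembly. The rest of the same chromosomes held 24105 loci. The 48 libraries were made from amygdalae of males, aged 4 months and on a C57BL/6N background, that were born to Tph2+/- parents and had been behaviourally tested before tissue was taken. They formed 6 groups of 8, with 1 library per mouse, given by genotype at Tph2, the gene of the serotonin-synthesising enzyme of neurons, and by early life. Tph2+/+ (wildtype), Tph2+/- (1 inactive copy in every cell) and Tph2-/- (no working copy in any cell) pups were either taken from the dam for 3 h per day on postnatal days 2 to 15 (maternal separation, MS) or left with it (C). The labels do not tie animals to litters. Amygdala tissue holds neurons, glia and blood vessel cells, so every value is an average over cell types, and a share of cells and a level per cell cannot be told apart.

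Olfactory receptors are G protein-coupled receptors that odorants bind in the nose, and they form the largest gene family of the mouse. Their genes stand in long tandem arrays, each usually with its coding sequence in a single exon, and are divided into class I, the older type also found in fish, and class II. In olfactory neurons 1 receptor allele is expressed while the others are kept in compact heterochromatin, and in most other tissues the arrays are silent. Mammalian DNA methylation lies mainly on cytosines of CpG dinucleotides, and capture with a protein domain that binds methylated CpGs (MBD) retains fragments according to the number of methylated CpGs they hold.

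The chromosome 2 window contained 208 receptor genes and 67 receptor pseudogenes in the RefSeq annotation, and the chromosome 7 window contained 232 receptor genes and pseudogenes, 44 of them pseudogenes. Together these are 507 of the 1427 annotated receptor genes and pseudogenes of the genome. By the family names among the RefSeq synonyms, 204 of the 208 chromosome 2 genes were class II and the others had no class given, whereas the first 3 Mb of the chromosome 7 window held mainly class I and the last 2.4 Mb mainly class II genes. The stretch between them held no receptor gene. The coding sequences of 4 receptors are shown to set captured beside uncaptured genes. They are printed as 300 bases from the middle of the locus (for Olfr988, of the coding sequence), from the RefSeq GRCm38.p6 assembly, plus strand, in lower case with CpGs in capitals.

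Olfr691, class I, captured, chr7:105336930-105337229: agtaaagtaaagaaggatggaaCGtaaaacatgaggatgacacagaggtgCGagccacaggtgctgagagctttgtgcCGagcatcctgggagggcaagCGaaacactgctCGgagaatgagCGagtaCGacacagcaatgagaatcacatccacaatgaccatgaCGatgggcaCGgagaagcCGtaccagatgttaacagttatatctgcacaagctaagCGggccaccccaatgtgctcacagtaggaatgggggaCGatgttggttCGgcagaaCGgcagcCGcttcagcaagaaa
Olfr599, class I, captured, chr7:103338477-103338776: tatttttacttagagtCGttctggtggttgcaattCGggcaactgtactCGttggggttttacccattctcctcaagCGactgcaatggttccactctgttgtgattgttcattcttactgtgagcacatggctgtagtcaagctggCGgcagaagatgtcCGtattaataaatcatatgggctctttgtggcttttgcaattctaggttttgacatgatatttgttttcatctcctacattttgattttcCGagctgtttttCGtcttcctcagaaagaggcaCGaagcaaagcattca
Olfr48, class II, captured, chr2:89844499-89844798: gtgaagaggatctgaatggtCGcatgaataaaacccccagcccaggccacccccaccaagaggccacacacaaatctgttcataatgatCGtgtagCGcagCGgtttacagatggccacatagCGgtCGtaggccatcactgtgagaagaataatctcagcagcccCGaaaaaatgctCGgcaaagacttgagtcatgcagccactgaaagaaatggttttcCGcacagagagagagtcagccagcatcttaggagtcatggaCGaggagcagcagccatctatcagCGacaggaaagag
Olfr988, class II, no locus, chr2:85353310-85353609: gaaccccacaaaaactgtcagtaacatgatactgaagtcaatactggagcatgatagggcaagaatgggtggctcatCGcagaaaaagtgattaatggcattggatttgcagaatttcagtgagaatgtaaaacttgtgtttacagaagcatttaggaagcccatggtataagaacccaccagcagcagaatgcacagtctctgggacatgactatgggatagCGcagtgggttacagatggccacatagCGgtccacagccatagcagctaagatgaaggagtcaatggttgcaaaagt

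The captured stretches held 15, 9 and 11 CpGs, and the stretch of Olfr988 held 3. All 4 stretches lay inside the coding sequence, which is on the minus strand in Olfr691, Olfr48 and Olfr988 and on the plus strand in Olfr599. Over the whole coding sequence Olfr691 had 25 CpGs, Olfr599 22, Olfr48 17 and Olfr988 6. The nearest locus to Olfr988 was 16638 bp away. Olfr988 was chosen after the values were seen, as the first uncaptured class II gene of chromosome 2 with the median number of CpGs.

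Loci were sparse in the clusters. The clusters held 38.8 loci per Mb and the rest of chromosomes 2 and 7 held 78.0. The chromosome 2 cluster was the sparser, at 26.7 per Mb against 76.7 on the rest of that chromosome, and the chromosome 7 cluster held 48.1 against 79.7. The median stretch between neighbouring loci was 21092 bp in the chromosome 2 cluster and 4068 bp on the rest of the chromosome, and 10818 bp against 4501 bp for chromosome 7. The longest stretch without a locus ran for 257 kb on chromosome 2 and spanned 13 receptor genes and pseudogenes. On chromosome 7 the longest was 172.3 kb, with 9 receptor genes and pseudogenes. These differences are descriptions of 1 set of loci shared by all libraries, and were not tested.

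**Figure D1:**
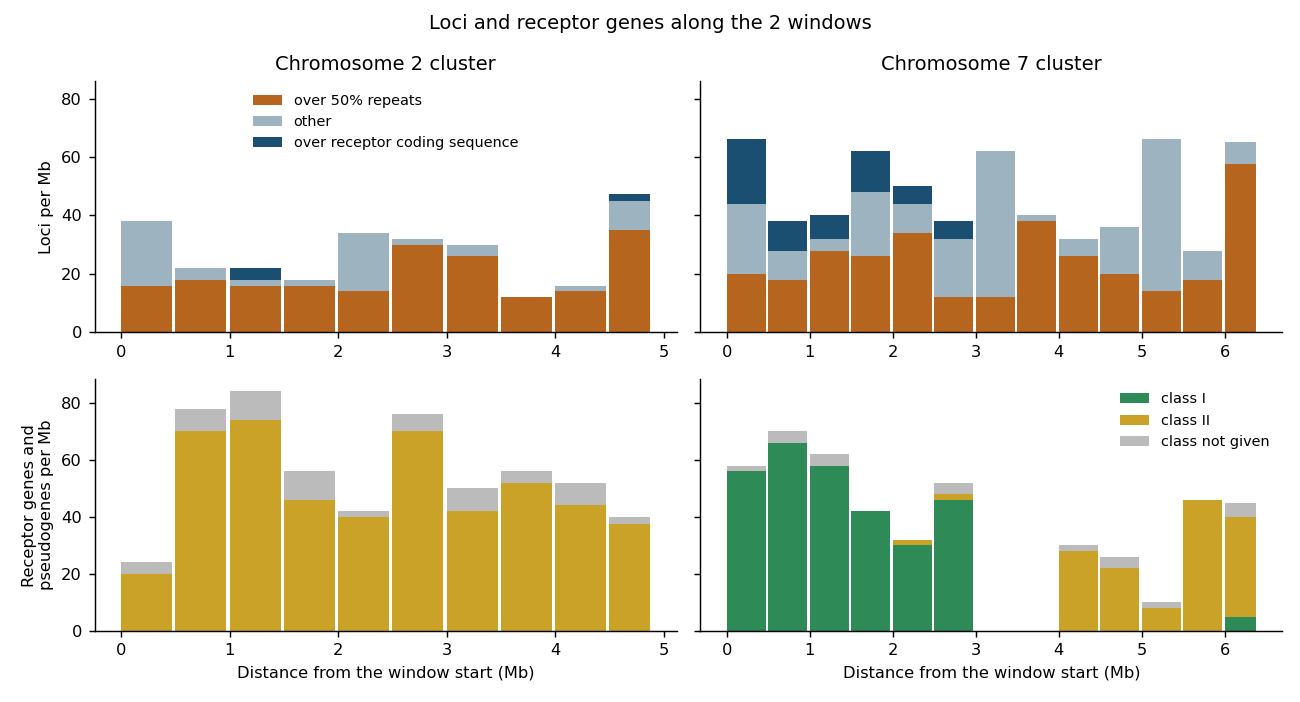
Loci per Mb (upper panels) and receptor genes and pseudogenes per Mb (lower panels) in steps of 500 kb (the last step of each window is shorter) against distance in Mb from the window start; colours give the kind of locus and the receptor class. Loci over receptor coding sequence stand almost all in the class I stretch of chromosome 7, and the only locus that is both repeat-rich and over a receptor coding sequence is drawn with the repeats.

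The clusters were also poor in CpG. They held 5.55 CpGs per kb, against 8.69 on the rest of the 2 chromosomes. Counted per CpG, the difference in locus number was smaller: 6.99 loci per 1000 CpGs in the clusters and 8.98 outside. The share of all CpGs that lay inside a locus was 18.6% in the clusters and 18.8% outside. By cluster it was 15.8% against 18% on chromosome 2 and 20.3% against 19.8% on chromosome 7. Within windows of 100 kb of like CpG density the clusters were not sparse from 4 to 8 CpGs per kb. At 4 to 5 CpGs per kb, 45 cluster windows held 24.4 loci per Mb and 322 windows outside held 17.7. At 5 to 6 CpGs per kb, 27 cluster windows held 41.9 loci per Mb and 429 windows outside held 31.1. At 6 to 8 CpGs per kb the values were 64.7 in 19 windows and 49 in 727. At 8 or more CpGs per kb the order was the other way, with fewer loci per Mb in the 12 cluster windows than the 119 per Mb of the 1563 windows outside. In the windows with fewer than 4 CpGs per kb, 10 cluster windows held 8.0 loci per Mb and 53 outside held 8.87.

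Most cluster loci were repeat sequence. Of the 436 loci, 251 (57.6%) had more than 50% of their bases marked as repeats in the reference, against 22.6% of the loci on the rest of the 2 chromosomes. The share was 72.5% on chromosome 2 and 51.1% on chromosome 7. The DNA of the windows itself was 44.9% repeats, against 33.2% outside, and the median locus was 61.1% repeats in the clusters and 21.1% outside. Stretches of 50 bases, the read length, that also occur elsewhere in the genome made up a median of 26.3% of a cluster locus and of 0% of a locus outside, and made up more than 50% of 135 cluster loci. A read from such a stretch cannot be placed with certainty by its own sequence, though the other read of its pair may place it. The sources used here do not give how such reads were treated, which limits what a count there stands for. For comparison, loci within 5 kb of receptor genes elsewhere in the genome (411 loci) were 49.1% repeat-rich.

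Cluster loci were slightly wider and held more CpGs than others. The median width was 985 bp (quartiles 762 and 1260) against 916 bp (743 and 1181), and the narrowest and widest were 408 and 9404 bp. The median locus had 19 CpGs against 16. Of all cluster loci 9.86% were 2 kb wide or more, against 6.23%. The level of a locus is given as CPM, the count per megacount of library size after TMM normalisation, a scaling that sets libraries to a like level over most loci. The median level was 2.98 CPM in the clusters and 2.47 CPM outside, and per kb of locus 3.01 and 2.76. The median raw count per library at a cluster locus was 32.3. In the clusters, loci with at most 50% repeats had medians of 876 bp, 16 CpGs and 2.39 CPM. Outside, such loci had 897 bp, 15 CpGs and 2.36 CPM. Repeat-rich loci had medians of 1057 bp, 21 CpGs and 3.75 CPM inside and 998 bp, 18 CpGs and 3.24 CPM outside. Loci within 5 kb of receptor genes elsewhere in the genome had 965 bp, 18 CpGs and 2.77 CPM. Loci with more CpGs had higher levels inside and outside the clusters: loci of 15 to 29 CpGs had a median of 3.27 CPM in the clusters and 2.89 outside, and those of 60 or more CpGs 17.2 and 16.1. Of the 41 cluster loci with 60 or more CpGs, 90.2% were repeat-rich.

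**Figure D2:**
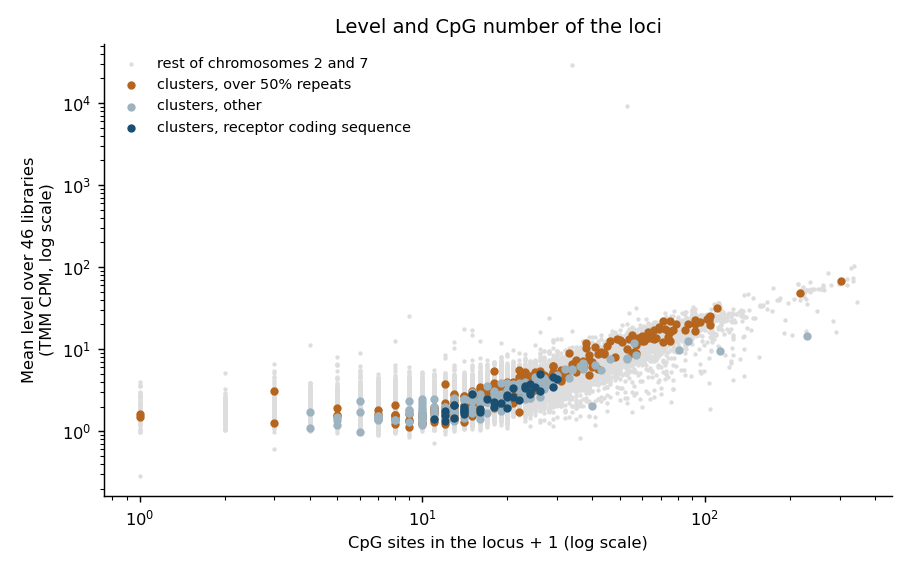
Mean level over 46 libraries (TMM CPM, log scale) against the number of CpGs in the locus plus 1 (log scale), 1 point per locus, for the 436 cluster loci by kind and for the rest of chromosomes 2 and 7. The cluster loci lie in the band of the other loci, the repeat-rich ones reach 67.1 CPM, and the loci over receptor coding sequence without repeats stay under 5 CPM.

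The highest levels were in intergenic repeats. On chromosome 7 the locus of highest level was also the widest, chr7:103291649-103301052, of 9404 bp, which lay 8671 bp from Olfr596, held 303 CpGs and was 98.5% repeats. Its mean level was 67.1 CPM, or 7.13 CPM per kb. In Tph2+/+ C libraries it ranged from 53.4 to 67.6 CPM with a median of 61.9, and in Tph2+/+ MS libraries from 60.8 to 87.9 with a median of 68.5, so the groups overlapped. Next came chr7:106368890-106376202 (48.9 CPM, 216 CpGs), far from any receptor gene, and chr7:108025978-108028508 (31.5 CPM, 109 CpGs), 2787 bp from Olfr478. On chromosome 2 the 3 highest were chr2:85694196-85697420 near Olfr1008 (25 CPM), chr2:86344014-86347175 (23 CPM) and chr2:88171644-88175233 near Olfr1168 (22.7 CPM), with at most 102 CpGs each. The second of these overlapped the coding sequence of Olfr1055, but 90.1% of it was repeats. The narrowest loci were chr2:89086023-89086430 (408 bp, 1.44 CPM) and chr7:105378022-105378438 (417 bp, 1.32 CPM), the latter in a coding exon of Gm5901. The repeat-rich loci were 57.6% of the cluster loci and carried 75.1% of their summed level.

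Coding exons held a like share of the loci inside and outside the clusters, 20.2% and 21.6%. Of the 436 loci, 268 were intergenic, 50 intronic, 30 in untranslated or non-coding exons and 88 overlapped a coding exon. Of the 185 loci with at most 50% repeats, 86 (46.5%) overlapped a coding exon, against 27.5% of such loci on the rest of the 2 chromosomes. The clusters differed in this: it was 54.4% on chromosome 7 (81 loci) and 13.9% on chromosome 2 (5 loci). In all, 37 loci lay over the coding sequence of a receptor, 4 on chromosome 2 and 33 on chromosome 7, and carried 5.24% of the summed level.

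Receptor genes differed widely in whether they were captured. Of 123 class I genes in the chromosome 7 cluster, 32 (26%) had a locus over their coding sequence. Of 265 class II genes in both clusters, 4 (1.51%) had one: none of the 61 on chromosome 7 and Olfr1045, Olfr1055, Olfr1057 and Olfr48 on chromosome 2. The share among class II genes elsewhere in the genome was 12% (84 of 702), so class II genes were not uniformly uncaptured. The CpG content of the genes differed in the same order. The median coding sequence held 11 CpGs in class I genes and 6 in class II genes of either cluster.

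**Figure D3:**
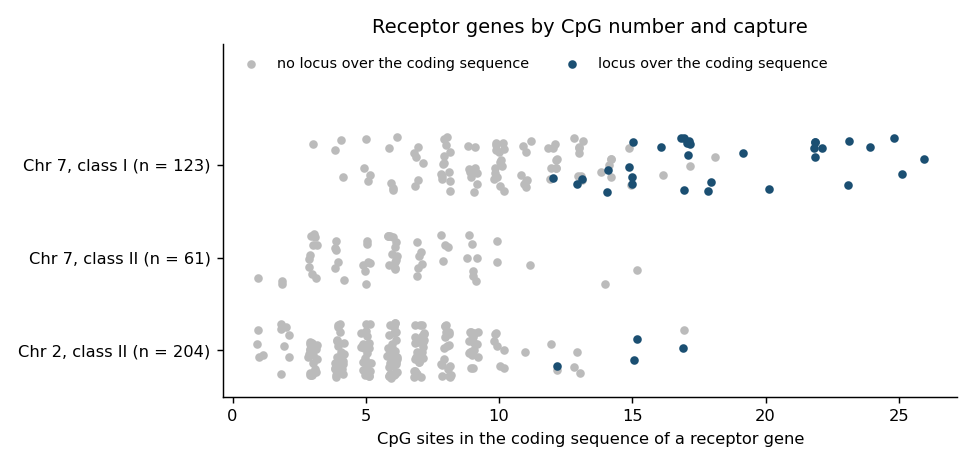
Number of CpGs in the coding sequence (horizontal axis) of each receptor gene of the clusters with a known class, 1 point per gene with small random offsets, in rows by chromosome and class; dark points have a locus over their coding sequence. Dark points begin at 12 CpGs, and all class I genes with 20 or more CpGs are dark.

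Capture went with CpG number within the clusters. None of the 82 receptor genes with fewer than 5 coding CpGs had a locus and none of the 208 with 5 to 9 did. Of the others, 6 of 68 with 10 to 14 had one (8.82%), 18 of 25 with 15 to 19 (72%) and 13 of 13 with 20 or more. The captured genes had a median of 17 CpGs and the uncaptured genes 7. At like CpG number the classes were closer. With 15 to 19 CpGs, 15 of 20 class I genes and 3 of 5 class II genes were captured, and with 10 to 14 it was 5 of 50 and 1 of 18. Elsewhere in the genome 64.7% of receptor genes with 15 to 19 CpGs and 90.7% of those with 20 or more had a locus. With 10 to 14 CpGs 22 of 131 did there (16.8%), and with 5 to 9 it was 3 of 317, both above the clusters. There were 7 cluster genes with 15 or more CpGs and no locus, namely Olfr1009, Olfr78, Olfr592, Olfr635, Olfr638, Olfr641 and Olfr2, with at most 18. Olfr78, a receptor also known for its role in blood vessels and the carotid body, had 16 CpGs and lay 6673 bp from the nearest locus. No locus means that no peak was called there, and low CpG content and low methylation cannot be told apart in an MBD table.

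The captured class I genes ran from Olfr543 at the start of the array to Olfr691. Those of highest level by the mean over 46 libraries were Olfr691 (4.97 CPM, chr7:105336538-105337621), Olfr599 (4.58 CPM, chr7:103337975-103339278) and Olfr550 (4.33 CPM, chr7:102578400-102579714), all free of sequence repeated elsewhere. Olfr691 ranged from 3.83 to 6.65 CPM in Tph2+/+ C, with a median of 4.68, and from 3.72 to 5.84 in Tph2-/- MS, with a median of 4.82. All 6 groups overlapped at Olfr691, and the test of any difference among them did not pass (edgeR quasi-likelihood F-test, p of 0.838, adjusted p of 0.996). On chromosome 2, Olfr48 had 2.46 CPM (chr2:89844223-89845074) and Olfr1045 had 1.75 CPM (chr2:86198091-86198759). The summed level of the 37 loci over receptor coding sequence was 114 ± 4.93 CPM (SD, n = 8) in Tph2+/+ C, and 112 ± 10.8 (n = 8) in Tph2+/+ MS, and the other 4 group means lay between 111 and 118. The SDs of the groups ran from 4.44 to 11.4 CPM, and the ranges of all 6 groups overlapped.

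Genes of other families stand among the receptors. None of the 6 beta globin genes, which lie inside the class I array, overlapped a locus, and the single locus within 5 kb of Hbb-bs gave 4.67 ± 0.896 CPM in Tph2+/+ C (n = 8). Of the 14 tripartite motif (Trim) genes, many of them antiviral ubiquitin ligases, 8 held a locus, 16 loci in all. Trim21, the cytosolic antibody receptor, had 3 loci in or within 5 kb, and Trim30a had 2. Gvin1, an interferon-inducible GTPase, had 3 loci. Dchs1, a large cadherin of planar cell polarity, had 6 loci inside it and 7 within reach of 5 kb, and these summed to 40.5 ± 4.60 CPM in Tph2+/+ C. Tpp1, the lysosomal peptidase next to it, had 1 inside. Syt9, a synaptotagmin of vesicle release, had 7. No locus lay within 5 kb of Rrm1, Apbb1, Smpd1, Hbb-bt, Hbb-bh1, Hbb-bh2 or Hbb-y, 1 lay near Ilk, and the annotation held no Hbb-b1 or Hbb-b2. Cckbr, the brain receptor of cholecystokinin, had 1 locus, chr7:105433235-105435742 in a coding exon with 86 CpGs, at 11.8 ± 1.41 CPM (SD, n = 8) in the Tph2+/+ libraries of C and 12.9 ± 2.60 in those of MS. At Cckbr the MS difference on the log2 scale was 0.18 (SE 0.08, edgeR adjusted p of 0.338).

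Total counts ranged from 7.72 to 14.1 M per library, of which 0.199 to 0.265% fell in the clusters. No 2 libraries had identical values. The highest summed levels were in part of one run of samples. Sample numbers in the labels run from S1 to S48, C being S1 to S17 and S42 to S48, and MS being S18 to S41. The study left out 2 Tph2-/- MS libraries for lower counts and a shifted density of the normalised signal, and the labels do not name them. The 2 of lowest total, replicates 3 and 7, were left out of the fits here. Replicate 3 (S20) had the highest summed level of all, 4353 CPM, against 1904 to 3037 in the 46 fitted libraries. Replicate 7 (S36) had 2420 CPM, and replicate 2 (S19), kept in the fits, had 3037 CPM. Among fitted libraries S18 to S26 had a mean of 2443 ± 326 CPM (SD, n = 8), and S27 to S41, also MS, 2104 ± 122 (n = 14). The C runs had 2119 ± 97.2 (n = 17) and 2074 ± 109 (n = 7). Of S18 to S26, S25 (1991 CPM), S26 (2249), S18 (2251) and S23 (2277) lay within the range of the C libraries, 1904 to 2319 CPM. The labels mark no break within S18 to S41. In Tph2-/- MS the group mean was 2308 ± 410 CPM over 6 libraries and 2577 ± 798 over all 8.

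The excess was in the repeat-rich loci. In S18 to S26 the 251 repeat-rich loci summed to 1.21 times their level in S1 to S17, and the 185 other loci to 0.984 times. Over 46 libraries the summed level of the repeat-rich loci had a coefficient of variation of 12.7% and that of the others 2.55%. TMM scaling holds most loci level and most loci are poor in repeats, so the small spread of the latter is in part set by the scaling. Scaled by total counts alone, the coefficients were 8.27% and 7.01%, and the ratios in S18 to S26 were 1.13 and 0.925. With an offset for CpG density the summed level of S18 to S26 was 2193 ± 101 CPM (n = 8) and that of S1 to S17 was 2108 ± 47.4 (n = 17). The slope of the log2 level of loci, relative to the mean of all libraries, per SD of CpG density was 0.33 in S20 and 0.24 in S19, the 2 libraries of highest summed level. The part of this slope in the summed level was not tested.

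**Figure D4:**
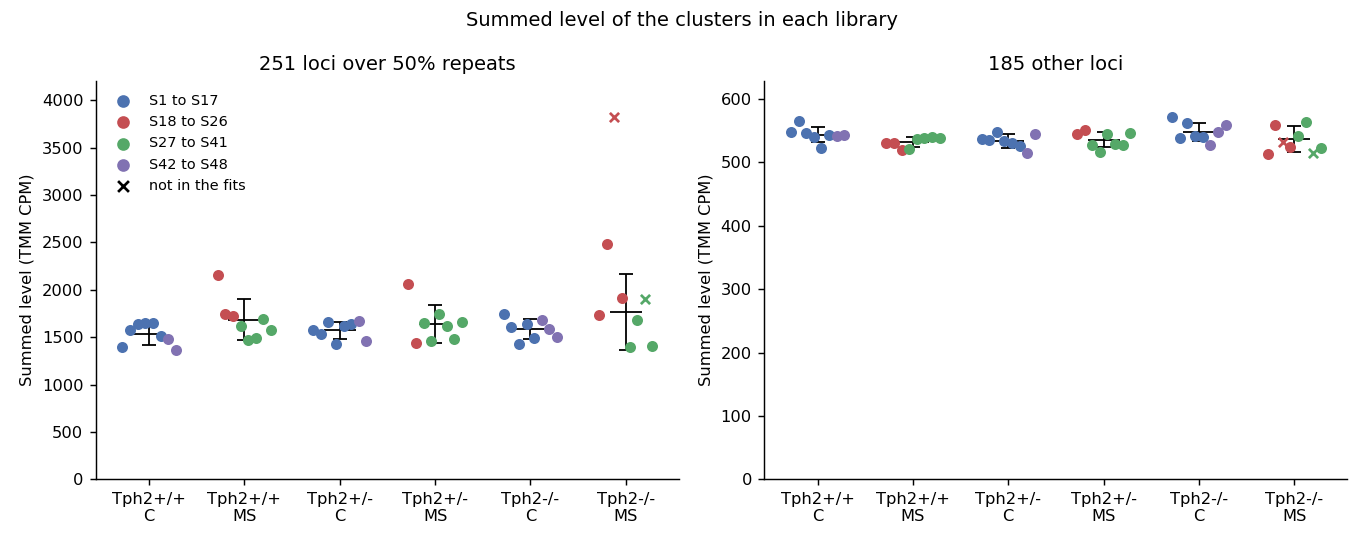
Summed level in TMM CPM of the 251 repeat-rich loci (left) and of the 185 other loci (right) in each of the 48 libraries, by group; colours give the run of sample numbers, crosses the 2 libraries not in the fits, and black marks the mean and SD of the fitted libraries. In the left panel the highest libraries of the MS groups are from S18 to S26, with 1 at 3821 CPM, and in the right panel all libraries lie between 514 and 571 CPM.

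By group the summed level of the clusters was 2077 ± 112 CPM in Tph2+/+ C, 2107 ± 87.3 in Tph2+/- C and 2135 ± 105.9 in Tph2-/- C (SD, n = 8 each). It was 2217 ± 214 in Tph2+/+ MS and 2176 ± 208 in Tph2+/- MS (n = 8 each). The lowest, median and highest values were 1904, 2095 and 2193 CPM in Tph2+/+ C libraries, whereas they were 2006, 2187 and 2686 CPM in Tph2+/+ MS libraries. The ranges of all 6 groups overlapped. The ratio of MS to C was 1.06, and 0.994 without S18 to S26, which held the fitted libraries of highest level.

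Tests were read from 1 fit over all 187695 loci. At the adjusted limit of 0.05 none of the 436 loci passed in any of the 6 comparisons (edgeR quasi-likelihood F-tests, Benjamini-Hochberg), where 0.016% of all loci passed for any difference among the groups, 0.0139% for Tph2-/- against Tph2+/+, 0.00213% for Tph2+/- against Tph2+/+, 0.0128% for MS against C and 0.0% for the interactions. Loci with an unadjusted p under 0.05 numbered 24, 16, 9 and 72 of the 436 in those 4 comparisons, and 13 and 16 in the interactions GE1 and GE2. GE1 is the MS effect in Tph2+/- minus that in Tph2+/+, and GE2 is the MS effect in Tph2-/- minus that in Tph2+/+. The shares of all loci at that p were 5.16, 4.08, 3.47, 12.2, 3.71 and 3.36%. With DESeq2 in place of edgeR, 7 cluster loci (1.61%) passed the adjusted limit for MS against C, where 0.653% of all loci did, and none did in the other comparisons. The study's own limits, an unadjusted p under 0.01 with a log2 difference beyond 0.2, are used from here.

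Genotype left few calls in the clusters. For Tph2-/- against Tph2+/+, averaged over C and MS, 2 loci passed (0.748% of all loci), both higher in Tph2-/- (0.331% of all loci were higher and 0.417% lower). They lay near each other in repeat sequence at the end of the chromosome 2 array. The first, chr2:89763800-89764822, 10974 bp from Olfr1253, ranged from 1.54 to 3.53 CPM (median 2.70) in Tph2+/+ C and from 2.78 to 4.93 (median 3.51) in Tph2-/- C. In the MS libraries it ranged from 2.28 to 5.47 (median 2.78) and from 2.47 to 7.23 (median 4.06). The genotypes overlapped in each condition, and the difference was 0.46 on the log2 scale (SE 0.13, p of 0.000785, adjusted p of 1.0). The second, chr2:89729928-89730984, 7819 bp from Olfr1252, differed by 0.38 (SE 0.14, p of 0.00864). It no longer passed with DESeq2, with the replicate block (0.34), with the CpG density offset or with Tph2-/- MS replicates 2 and 3 left out (0.34), and the first no longer passed without S18 to S26 (0.39). Over all 436 loci the median difference was 0.02, beside 0.01 over all loci. For Tph2+/- against Tph2+/+ 1 locus passed (0.546% of all loci, 0.266% higher and 0.28% lower), chr2:85370562-85371539 near the pseudogene Olfr989-ps1, which was lower in Tph2+/- by -0.37 (SE 0.13, p of 0.00564). It ranged from 1.52 to 3.05 CPM in Tph2+/- C and from 2.01 to 4.56 in Tph2+/+ C. Chr7:102511459-102512718, 362 bp from Gm8556, was next for this comparison (-0.32, SE 0.13, p of 0.0143).

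MS against C gave the most calls. In the clusters 20 loci passed (4.59%), where 3.63% of all loci did. Of these 15 were higher in MS (2.28% of all loci were) and 5 lower (1.35% of all loci were). This split depended on the scaling. With total counts alone 19 loci passed, 5 higher and 14 lower, 10 of them among the 20, and over all loci 1665 were higher and 4407 lower. With the CpG density offset 5 were higher and 7 lower, whereas over all loci 3432 were higher and 2260 lower. The 20 loci kept their sign under both. Of the 15 higher loci 14 were repeat-rich, with more than 50% of their sequence found elsewhere in the genome, and their median CpG number was 65, against 19 over all cluster loci. Their differences ran from 0.21 to 0.44 on the log2 scale. The largest differences were at chr2:88669689-88671027 near Olfr1193 (0.44, SE 0.13, p of 0.00174) and chr7:104033064-104035017 near Olfr641 (0.43, SE 0.12, p of 0.00117). A pair lay in introns of Trim5 (0.23, SE 0.07, p of 0.00205) and Trim30d (0.24, SE 0.09, p of 0.00749), both of the antiviral Trim group. None of the 20 loci lay over a receptor coding sequence, and none of the 37 loci that did passed in this comparison.

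The exception among the higher loci was in an intron of Syt9, chr7:107483189-107484198, with 19.1% repeats. It ranged from 1.31 to 4.16 CPM (median 2.59) in Tph2+/+ C and from 1.77 to 4.62 (median 3.68) in Tph2+/+ MS. In Tph2-/- it ranged from 2.02 to 3.45 (median 2.52) in C and from 3.04 to 4.92 (median 3.91) in MS. The groups overlapped, and the difference was 0.38 (SE 0.11, p of 0.000768, adjusted p of 0.153). The other 6 loci of Syt9 did not pass. The 5 lower loci were all on chromosome 7, had a median of 12 CpGs and lay in an intron of Usp17le, a deubiquitinase, in a coding exon of Tpp1, near Olfr704 and, for 2, at 24642 and 48216 bp from Gvin1. The locus near Olfr704, chr7:106857975-106858746, had the smallest p of the clusters. It ranged from 1.42 to 2.19 CPM (median 1.73) in Tph2+/+ C and from 0.644 to 1.95 (median 1.05) in Tph2+/+ MS, and from 1.11 to 1.88 (median 1.67) in Tph2-/- C and from 0.452 to 1.69 (median 0.984) in Tph2-/- MS. The groups overlapped in each genotype, with a difference of -0.58 (SE 0.16, p of 0.000283, adjusted p of 0.124). At Tpp1 the difference was -0.45 (SE 0.16, p of 0.0052).

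**Figure D5:**
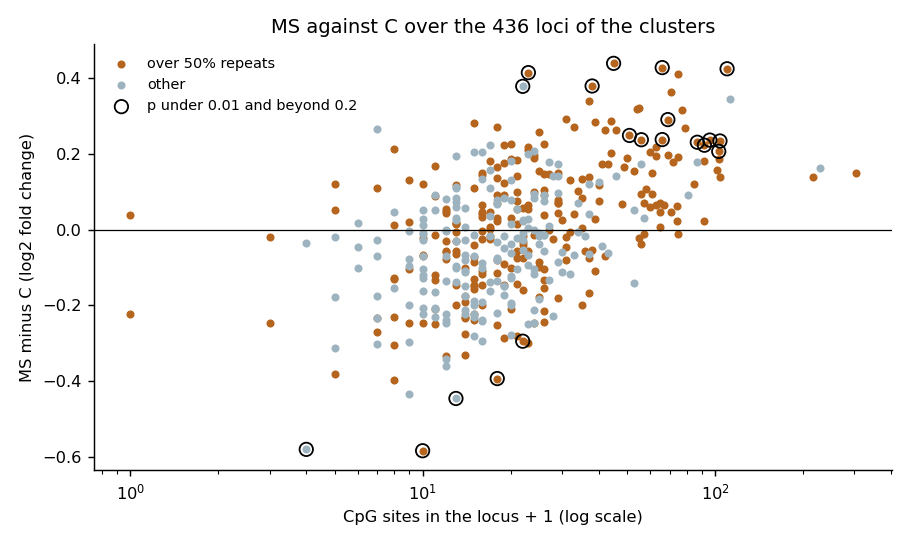
Log2 fold change of MS against C (vertical axis) against the number of CpGs in the locus plus 1 (log scale), 1 point per cluster locus, coloured by repeat content; open circles mark the 20 loci past the study's limits. The values rise with CpG number, and of the 41 loci with 60 or more CpGs 40 are above 0.

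The MS difference went with CpG number. Its median was -0.10 in the loci with fewer than 15 CpGs (35.1% of cluster loci), of which 40 were higher in MS. It was -0.01 in the 177 loci with 15 to 29, 0.08 in the 65 loci with 30 to 59 and 0.18 in the 41 loci with 60 or more, of which 40 were higher. At any CpG number, 47.5% of cluster loci and 50.4% of all loci were higher in MS. Values by CpG number are not given for loci outside, so the trend is not shown to be particular to the clusters. Leaving out S18 to S26 took away the fitted MS libraries of highest summed level and kept 14 MS libraries. A smaller MS difference and fewer calls are in part built into that setting. Without S18 to S26 the medians were -0.01, -0.03, -0.05 and 0.00. With the CpG density offset they were -0.07, 0.00, 0.02 and 0.05. With total counts alone they were -0.14, -0.06, 0.03 and 0.11. Without S18 to S26, 3 cluster loci passed in place of 20 (0.688%, where 1.26% of all loci did). Of the 15 higher loci 1 then passed, that in Syt9, 12 kept their sign, and the median difference was 0.08 in place of 0.25. None of the 5 lower loci then passed, but all kept their sign, with a median of -0.38 in place of -0.45. With the offset 12 passed (2.75%, where 3.03% of all loci did), 4 of the 15 higher and 5 of the 5 lower ones among them. No stretch of sample numbers held both C and MS libraries, so the difference could not be taken within one. The labels do not say what the numbers stand for. Within MS, S27 to S41 had a mean summed level like that of the C libraries and S18 to S26 a higher mean, with some of its libraries in the C range, as given above.

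The interactions and the test over all groups gave calls near their share over all loci. For GE1, 2 loci passed (0.626% of all loci, 0.312% with positive and 0.314% with negative values), both negative: chr7:105939535-105941032 in an intron of Gm4070 (-0.52, SE 0.19, p of 0.00575) and chr2:89569735-89570365 near Olfr1245 (-1.02, SE 0.38, p of 0.00818). For GE2, 3 passed (0.558% of all loci, 0.297% with positive and 0.262% with negative values), all negative and all in the class I array. These were chr7:102511459-102512718 near Gm8556 (-0.75, SE 0.26, p of 0.00445), chr7:102614122-102614904 over the coding sequence of Olfr553 (-0.87, SE 0.32, p of 0.00761) and chr7:105229577-105230675 in an intron of Olfr687 (-0.68, p of 0.00847). The last was named after its value was seen. The Olfr553 locus had medians of 1.49 CPM in Tph2+/+ C, of 2.32 for Tph2+/+ with MS, and of 2.31 in Tph2-/- C and 1.70 in Tph2-/- MS, with ranges that overlapped (1.06 to 2.52, 1.32 to 3.04, 1.59 to 3.14 and 1.36 to 2.78). Without S18 to S26 neither of the 2 GE1 loci passed, and 1 of the 3 GE2 loci did. Tph2-/- MS then rested on S33, S34 and S37 alone. The run was spread unevenly over genotypes, with S22 and S25 from Tph2+/- MS and S21, S23 and S26 from Tph2+/+ MS. For any difference among the 6 groups, 3 loci passed an unadjusted p under 0.01 (1.07% of all loci), those near Gm8556, near Olfr704 and at 24642 bp from Gvin1. The groups near Gm8556 had medians from 2.97 to 4.42 CPM, highest in Tph2+/+ MS.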

How the data were processed

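Amygdala DNA of 48 mice was enriched by MBD capture. According to the methods of the study and the labels, the authors mapped paired reads with Bowtie2 2.1.0 to GRCm38, called peaks with MACS, pooled the peaks of the libraries into 1 set, and used DiffBind 2.0.9 for the counts in it. The deposited values are these raw counts, and columns of fold changes or p-values were not used. All 48 columns matched a sample. The treatment of multiply mapped and duplicate reads is not given in the sources used here.

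Loci were tested with edgeR 4.0.16 in R 4.3.3 on the deposited counts (TMM, trended dispersion, robust quasi-likelihood F-tests, 1 term per group, no covariate) in 46 libraries, without Tph2-/- MS replicates 3 and 7, and adjusted by Benjamini-Hochberg over all 187695 loci. No locus was filtered. Levels per library were TMM-scaled over 48 libraries, mean levels of loci over the 46. The CpG offset was a lowess curve of log2 counts on CpG density (span 0.3). Genes, repeats (lower-case bases), CpGs and repeated 50-base words came from the RefSeq GRCm38.p6 assembly with Python 3.11.15. Receptor classes came from the family names of the RefSeq synonyms (families up to 42 are class I), a choice made after the data were seen.

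Members and lists were chosen with earlier results of these data known. Named loci were, in each cluster, the 3 of highest level, the widest, the narrowest and the 3 of highest level over receptor coding sequence, in each comparison those with an adjusted p under 0.05 or, where none passed, the 2 of smallest p, and those within 5 kb of listed neighbouring genes. Others named were singled out after their values were seen. The middles of the highest repeat loci are not printed. Tested on simulated data over 187695 loci, the fit found 97 of 100 loci with a true log2 change of 1 in Tph2-/-, and 42 of 100 with one of 0.5 in MS, at the adjusted limit of 0.05. It called 2 unchanged loci in each. Alternatives were DESeq2 1.42.0 and 10 other settings per comparison. P-values measure the spread between animals, some of which may share litters. Totals per library ranged from 7.72 to 14.1 M counts, and intervals from counting alone would be too narrow, since both mates of a pair can be counted.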

Additional observations from a re-analysis of the deposited data

Results flagged for a closer look

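Libraries that stood apart from their group by the gap to the nearest other library, relative to the range of the group, were found in 13 of 150 group values checked. Chance gives about 1 in 20 independent groups. The values checked share libraries, and the summed levels share reads, so the 13 cannot be set against that rate. In Tph2-/- MS, replicate 3 (not in the fits) had the highest summed level, 4353 CPM with the next at 3037, and on chromosome 2 alone 1494 CPM with the next at 963. In Tph2+/+ MS, replicate 1 had 2686 CPM with the next at 2277, which was 864 CPM on chromosome 2 and 1822 CPM on chromosome 7. Both are from S18 to S26, and so is replicate 1 of Tph2+/- MS.

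At the repeat locus near Olfr478 on chromosome 7, replicate 1 of Tph2+/+ MS had 75.7 CPM (next 44.6) and replicate 1 of Tph2+/- MS had 60.3 CPM (next 38.8). The locus near Olfr1168 was low in Tph2+/- C replicate 4, at 14.2 CPM. The Olfr550 locus was high in Tph2+/- MS replicate 2, at 7.13 CPM. At 4 loci named from the group comparisons 1 library stood apart. The locus near Gm8556 had 5.54 CPM in Tph2-/- MS replicate 2 (next 3.42), that near Olfr1253 had 5.47 CPM in Tph2+/+ MS replicate 7 (next 3.73), and Olfr553 had 2.78 CPM in Tph2-/- MS replicate 6 (next 1.80). The Syt9 locus was low in Tph2+/- C replicate 5, at 1.65 CPM. What set these libraries apart was not tested.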

How the results depend on the processing

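The density, width, CpG density and level of the loci kept their direction against all autosomes in place of chromosomes 2 and 7, and no locus crossed the window limits. The summed level of MS relative to C ranged from 0.994 to 1.1 over its settings, of which 3 were chosen after seeing the data. The 10 differences named for their small p kept their direction under every setting run on them. Without S18 to S26, 5 of them no longer passed, and 3 of the 15 loci higher in MS turned sign. Counts past the study's limits moved as follows, and counts over all loci moved too. With all 48 libraries there were 38 loci for MS against C (8.72%, all loci 5.79%), 23 for any difference (5.28%, all loci 3.26%) and 1 for GE1 (all loci 0.548%). Without S18 to S26 there were 3 for MS (all loci 1.26%) and 5 for GE2 (all loci 0.855%), 1 of the latter shared. The 3 for GE1 in that setting (all loci 0.766%) shared none. With a term for S42 to S48 there were 13 for MS (all loci 2.39%). With the CpG density offset there were 12 for MS (all loci 3.03%), 7 for any difference (all loci 1.13%) and 1 for Tph2-/- against Tph2+/+ (all loci 0.7%). With Tph2-/- MS replicates 2 and 3 left out, 3 passed for Tph2-/- against Tph2+/+ (all loci 0.634%), 1 of them shared. For MS against C 14 then passed, 10 higher and 4 lower (all loci 2.58%). With loci of a mean count of 20 or more there was 1 each for any difference and GE1 (all loci 0.993 and 0.602%). With total counts alone there were 0 for GE1 and 1 for GE2 (all loci 1.28 and 0.53%), and the median GE1 value over all loci moved from -0.01 to 0.15. The same scaling gave 5 loci higher and 14 lower in MS, against 15 and 5. DESeq2 gave 5 for any difference (all loci 1.57%) and, at the adjusted limit, 7 for MS (all loci 0.653%). With the replicate block, 21 loci passed for MS against C (all loci 3.68%) and 1 for GE1 (all loci 0.63%). The median correlation of same-numbered libraries was 0.01 (from -0.15 to 0.23 over 120 pairs), beside -0.00135 for different numbers. Of the 48 libraries, 11 correlated best with their own number. Whether the replicate numbers pair the samples was not tested. The causes of these moves were not tested. How reads of repeated sequence were placed is not given, which limits the counts of repeat loci.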
